A study of Mus musculus with 48 samples.

Results

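The genes described here are the CNC transcription factors *Nfe2l1*, *Nfe2l2* and *Nfe2l3*, the sensor *Keap1*, the repressors *Bach1* and *Bach2*, and the small Maf genes *Maff*, *Mafg* and *Mafk*. These 9 genes were chosen by symbol as regulators of the NRF2 pathway, and each was found in both deposited tables, among 27082 genes used for B6 mice and 18939 for *APOE*-TR mice. RNA of the cerebral cortex was sequenced in 48 mice, in 12 groups of 4 that differ in sex, genotype and exposure. The groups addressed whether inhaled nPM, a nano-sized fraction of urban traffic particles, changes cortical expression and whether sex and the *APOE* allele alter that response.

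The 16 B6 mice are wild-type C57BL/6J, labelled with an age of 4 months, and inhaled nPM or filtered air over 8 weeks. The 16 *APOE*3 and 16 *APOE*4 mice are *APOE*-TR mice, in which targeted replacement puts a human allele in place of mouse *Apoe*, labelled with an age of 6 months and exposed over 15 weeks. Sessions lasted 5 hr on each of 3 days a week in all groups. The B6 and the *APOE*-TR exposures were separate experiments with tables made separately, so genotype, age, duration and exposure batch cannot be told apart between them, and levels are compared only within a table. In bulk tissue, fewer cells of a type and less RNA per cell cannot be told apart.

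NRF2, the protein of *Nfe2l2*, is held in the cytoplasm by KEAP1, which brings it to a ubiquitin ligase for degradation, so that its protein level is set largely after translation, which mRNA does not measure. Electrophiles and oxidants modify KEAP1, NRF2 then enters the nucleus, pairs with a small Maf protein and binds antioxidant response elements of detoxification and glutathione genes. NRF1, from *Nfe2l1*, is processed at the endoplasmic reticulum and drives proteasome genes, BACH1 and BACH2 occupy the same elements as repressors, and the small Mafs, which lack an activation domain, are the shared partners of both sides.

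The antioxidant response element core TGACNNNGC was searched on both strands of the RefSeq promoters (GRCm38.p6), each from 250 bases before to 50 bases after a start site. All 9 genes were in that table, with 15 promoters, of which 4 held a match, 1 each in *Nfe2l2*, *Maff*, *Mafg* and *Mafk*. Of all 32851 promoters in the table, 12.4% held a match. The matched promoters of the 3 genes that passed the nPM threshold below are shown 5′ to 3′ in the direction of transcription, with the matched letters in capitals. In *Mafg* the match reads on the opposite strand.
*Nfe2l2* promoter, chr2:75704614-75704913, minus strand: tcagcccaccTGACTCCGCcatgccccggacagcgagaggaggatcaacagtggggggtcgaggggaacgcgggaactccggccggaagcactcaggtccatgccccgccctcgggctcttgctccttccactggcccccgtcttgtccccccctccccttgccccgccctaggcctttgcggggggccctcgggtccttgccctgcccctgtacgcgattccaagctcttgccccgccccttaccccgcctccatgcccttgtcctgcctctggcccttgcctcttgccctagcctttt
*Mafg* promoter, chr11:120633498-120633797, minus strand: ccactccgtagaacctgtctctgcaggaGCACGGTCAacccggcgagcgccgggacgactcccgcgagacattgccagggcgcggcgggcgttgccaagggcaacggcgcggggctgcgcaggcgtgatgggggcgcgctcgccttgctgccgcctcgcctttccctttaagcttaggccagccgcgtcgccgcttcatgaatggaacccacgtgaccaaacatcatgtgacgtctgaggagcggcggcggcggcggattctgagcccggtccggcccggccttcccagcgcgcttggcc
*Maff* promoter, chr15:79346371-79346670, plus strand: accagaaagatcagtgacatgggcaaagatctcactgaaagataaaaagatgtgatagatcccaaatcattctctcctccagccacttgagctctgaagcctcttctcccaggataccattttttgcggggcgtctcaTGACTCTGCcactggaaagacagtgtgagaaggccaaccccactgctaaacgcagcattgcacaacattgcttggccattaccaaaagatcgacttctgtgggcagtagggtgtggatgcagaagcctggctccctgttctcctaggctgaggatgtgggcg
The first matched base lies at position -240 from the start site in *Nfe2l2*, at -222 in *Mafg* and at -112 in *Maff*. *Maff* has 2 further promoters in the table, without a match. A match is a description of these letters and not a binding site.

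Values are the authors' CPM (read counts scaled to library size), and the lowest value of each mouse was read as that of a gene with 0 reads. On that reading the listed genes held 17.8 to 31.3 M (mega) estimated reads per *APOE*-TR mouse and 2.05 to 24.4 M per B6 mouse. The labels of sex, and of B6 against *APOE*-TR, matched in every mouse by *Xist* (females at least 90.3 CPM, males at most 0.397 CPM), *Ddx3y* (males at least 6.81 CPM, females at most 0.12 CPM) and mouse *Apoe* (B6 at least 164 CPM, *APOE*-TR at most 30.7 CPM), which do not check the label of *APOE*3 against *APOE*4. As a check of the tissue, 5 neuronal markers summed to 4134 to 6556 CPM in *APOE*-TR and 1613 to 6140 CPM in B6 mice, and 5 markers of striatal neurons to 55.8 to 1503 CPM over all mice. One column, of an *APOE*3 female in filtered air and called F6 here, has an animal number that no sample carries, and was used by the group in its label.

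The *APOE*3 females in filtered air stood apart in how level depends on transcript length. For each mouse, log2 levels were taken relative to the mean over all mice of its table. These levels were regressed on log2 exon length over genes above the lowest value in every mouse (15461 in *APOE*-TR, 13823 in B6). The resulting length slope was -0.10, -0.44, -0.13 and -0.32 in animals 52, 61, 63 and F6, so that long transcripts were low in them. The *APOE*3 females with nPM were at -0.18, -0.01, -0.01 and -0.07 (animals 55, 59, 67 and 70), and the other 24 *APOE*-TR mice lay between -0.09 and 0.14. Values with the slope as a covariate or without the *APOE*3 females are alternatives chosen after seeing the data. They stand beside most results below that include these females and differ at p under 0.05. The nPM values in *APOE*-TR mice alone have neither beside them. The slope comes from the same expression values and was mostly lower in the *APOE*3 control females than in the exposed ones. Within *APOE*3 females slope and nPM, and between control females slope and allele, therefore cannot be fully told apart. A value with the covariate does not decide between them.

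Per kilobase of exon, *Nfe2l1* was the most abundant of the 9 genes in the *APOE*-TR table, with group means of 48.1 to 63 CPM per kb. *Keap1* followed at 9.42 to 13.7 CPM per kb, then *Nfe2l2* at 3.09 to 4.61 and *Mafg* at 2.06 to 3.58 CPM per kb, ranges that overlap. *Bach1* (1.65 to 2.13), *Mafk* (1.45 to 1.94) and *Nfe2l3* (1.16 to 1.67 CPM per kb) overlapped in turn, *Bach2* was at 0.48 to 1.17, and *Maff* was lowest at 0.22 to 0.39 CPM per kb. In the B6 table *Nfe2l1* (9.35 to 13.9 CPM per kb) also had the highest range, while *Keap1* (3.44 to 7.60), *Mafg* (4.10 to 5.63) and *Nfe2l2* (3.21 to 5.09 CPM per kb) overlapped.

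*Nfe2l1* transcripts were the best measured, with at least 4289 estimated reads per *APOE*-TR mouse and 283 per B6 mouse. *Maff* rested on 12 to 51 reads in *APOE*-TR mice and had 0 reads in 3 B6 mice, all with nPM. *Bach2* had 0 reads in 1 B6 male in filtered air. The fit of 48 mice kept genes above the lowest value in every mouse, so it tested 7 of the 9 genes and left out *Bach2* and *Maff*.

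**Figure D1:**
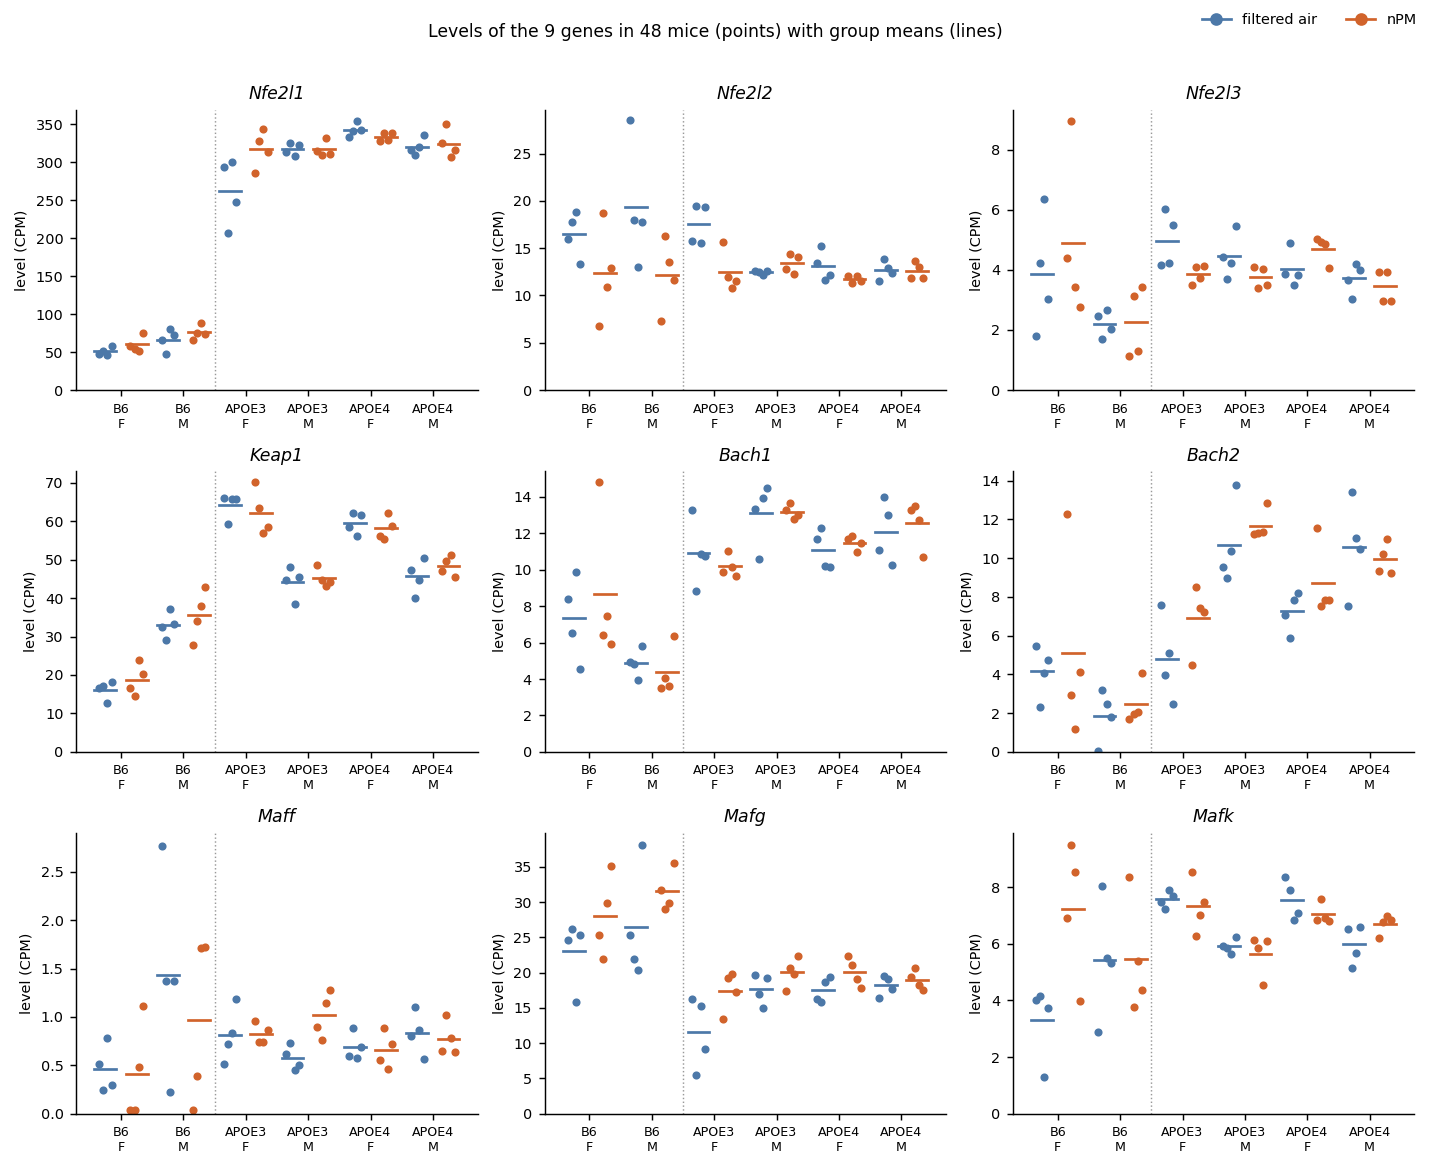
Level of each gene in CPM (vertical axes, linear from 0) in the 48 mice, by genotype and sex on the horizontal axis (F, females; M, males), with filtered air in blue and nPM in orange; points are mice, lines are group means, and the dotted line separates the 2 tables. Within the *APOE*-TR table the lowest *Mafg* (5.48 CPM) and the lowest *Nfe2l1* (206 CPM) belong to *APOE*3 females in filtered air.

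Over the 48 mice, 1 of the 7 tested genes rose and 1 fell with nPM at the threshold, an unadjusted p under 0.005. *Mafg* rose by 0.28 on the log2 scale (standard error 0.088, n = 48, p = 0.00274), or 21.2%, and *Nfe2l2* fell by 0.28 (standard error 0.090, n = 48, p = 0.00333), a change of -17.6%. Of all 11087 genes tested, 1.49% passed, 0.821% upward and 0.667% downward. *Nfe2l1* was at 0.12 (standard error 0.057, n = 48, p = 0.0463), under 0.05, as were 14.5% of genes, but not under 0.005, and was at 0.12 (n = 48, p = 0.0419) with the length slope as a covariate and 0.08 (n = 40, p = 0.188) without the *APOE*3 females. At 5% FDR 0 genes passed in limma (adjusted p = 0.302 for *Mafg* and *Nfe2l2*), where 1604 had an unadjusted p under 0.05.

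Both calls depended on which mice entered. *Mafg* was past 0.005 in 46 of 48 fits that leave out 1 mouse, and *Nfe2l2* in 39 of 48. Without the B6 female 42 in filtered air the p-values (n = 47) were p = 0.0053 for *Mafg* and p = 0.00504 for *Nfe2l2*, and without the *APOE*3 female F6 they were p = 0.00528 and p = 0.00574 (n = 47). Without the 8 *APOE*3 females *Mafg* was at 0.20 (n = 40, p = 0.00934) and *Nfe2l2* at -0.24 (n = 40, p = 0.0233). With the length slope as a covariate they were at 0.21 (n = 48, p = 0.00771) and -0.24 (n = 48, p = 0.00874). *Nfe2l2* was at -0.56 in B6 mice alone (n = 16, p = 0.0172) and at -0.12 in *APOE*-TR mice alone (n = 32, p = 0.0539), and the difference between these values was not tested. For *Mafg* the value was 0.29 in either table (n = 16, p = 0.0826 for B6 and n = 32, p = 0.0174 for *APOE*-TR mice).

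*Nfe2l2*, which encodes NRF2, lies on chromosome 2 from 75675513 to 75704664 (mm10). In B6 females it was at 15.9, 17.7, 18.8 and 13.4 CPM in filtered air and at 6.77, 18.7, 10.9 and 12.9 CPM with nPM. In B6 males it was at 28.6, 18.0, 13 and 17.7 CPM in filtered air and at 7.34, 16.3, 13.5 and 11.7 CPM with nPM. Below all controls of their sex were 3 of the 4 exposed females and 2 of the 4 exposed males, and the groups overlapped. The log2 difference was -0.43 in B6 females (standard error 0.292, limma p = 0.161, exact permutation p = 0.229) and -0.66 in B6 males (standard error 0.311, limma p = 0.0535, exact permutation p = 0.0857). Leaving out 1 mouse at a time gave -0.66 (without exposed animal 51) to -0.20 (without exposed animal 50) in females and -0.83 (without control 3) to -0.44 (without exposed animal 10) in males. Striatal markers moved in these mice too, with 5 of 5 lower in exposed males (median -0.94, none with p under 0.05) and 5 of 5 higher in exposed females (median 1.37, 1 with p under 0.05), and the neuronal markers had a median of 0.55 in males, 2 higher and 1 lower at p under 0.05. The B6 male 0 had the highest striatal sum (1503 CPM) and the lowest neuronal sum (1613 CPM) of all mice. Its length slope of -0.17 was also the lowest of the 16 B6 mice, in which the slope reached 0.06. The part of these markers was not tested. Without the B6 male 0, the control at 28.6 CPM, the difference over the remaining 47 mice was -0.23 (n = 47, p = 0.00648), no longer past 0.005.

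In *APOE*3 females *Nfe2l2* was at 15.7, 19.5, 15.5 and 19.3 CPM in filtered air (animals 52, 61, 63 and F6) and at 15.7, 12, 10.8 and 11.5 CPM with nPM (animals 55, 59, 67 and 70). After TMM scaling of these 8 mice all exposed mice were below all controls, while as deposited the exposed animal 55 lay above the control 63. The log2 difference was -0.42 (standard error 0.134, limma p = 0.0132, adjusted p = 0.23), with a two-sided exact permutation p = 0.0286, the smallest that 70 labelings of 8 mice can give. In this comparison 6.81% of 16391 genes did not overlap between the groups and 21% had p under 0.05. With the length slope as a covariate the difference was -0.24 (standard error 0.114). In the other *APOE*-TR groups *Nfe2l2* stayed between 11.3 and 15.2 CPM. Its differences there were 0.11 for *APOE*3 males (standard error 0.072), -0.14 for *APOE*4 females (standard error 0.087) and -0.002 for *APOE*4 males (standard error 0.076).

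*Nfe2l1*, which encodes NRF1, lies on chromosome 11 from 96817414 to 96829969. In *APOE*3 females its level was 294, 206, 300 and 247 CPM in filtered air and 285, 328, 344 and 314 CPM with nPM. The lowest controls, animals 61 and F6, are those with the steepest length slopes, and the groups overlapped. The log2 difference was 0.36 (standard error 0.164, limma p = 0.059, exact permutation p = 0.0857), 0.22 without control 61, and 0.02 (standard error 0.074) with the slope as a covariate. In the other 6 *APOE*-TR groups it ran from 307 to 354 CPM, with differences of 0.01 (*APOE*3 males, standard error 0.049), -0.03 (*APOE*4 females, 0.049) and 0.02 (*APOE*4 males, 0.051). In B6 mice the values were 0.27 (standard error 0.164) in females and 0.20 (standard error 0.204) in males, with overlap in both.

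*Nfe2l3*, the remaining CNC factor of this group, lies on chromosome 6 from 51432670 to 51458769. Its log2 difference over 48 mice was -0.03 (standard error 0.117, n = 48, p = 0.776). In *APOE*3 mice it was -0.26 in females (standard error 0.133, exact permutation p = 0.0571; -0.13 with the length slope as a covariate) and -0.21 in males (standard error 0.119, exact permutation p = 0.143). In *APOE*4 females the controls were at 3.87, 4.89, 3.5 and 3.83 CPM and the exposed mice at 5.01, 4.91, 4.86 and 4.04 CPM. Each exposed female lay above 3 of the 4 controls and 2 lay above all, at a difference of 0.22 (standard error 0.117, exact permutation p = 0.0571). For *APOE*4 males it was -0.09 (standard error 0.125).

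*Keap1*, whose protein targets NRF2 for degradation, lies on chromosome 9 from 21229730 to 21239333. Its log2 difference with nPM was 0.05 over 48 mice (standard error 0.108, n = 48, p = 0.615). Within *APOE*-TR groups the differences ran from -0.03 (standard error 0.055) in *APOE*4 females to 0.09 (standard error 0.070) in *APOE*4 males. The sexes stood in opposite order in the 2 tables, as a description without a test. In *APOE*-TR mice group means were 58.1 to 64.2 CPM in females and 44.2 to 48.4 CPM in males, and in B6 mice 16.1 and 18.8 CPM in females and 33 and 35.6 CPM in males. The depths of *APOE*-TR females (17.8 to 22.3 M reads) and males (22.4 to 31.3 M) did not overlap, so sex and depth cannot be told apart in that table.

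*Bach1*, on chromosome 16 from 87698954 to 87733347, encodes the heme-sensitive repressor of *Hmox1* and other NRF2 targets. Its log2 difference with nPM was 0.01 over 48 mice (n = 48, p = 0.94), and in the 6 strata of sex and genotype it lay between -0.18 (standard error 0.320, B6 males) and 0.22 (standard error 0.359, B6 females). *Bach2*, on chromosome 4 from 32417435 to 32586109 (from 32238804 in the B6 data), encodes a related repressor best known from lymphocytes. The *APOE*3 females were at 7.58, 3.98, 5.08 and 2.45 CPM of *Bach2* in filtered air and at 4.46, 8.50, 7.44 and 7.20 CPM with nPM, which overlap. The difference was 0.61 (standard error 0.329, exact permutation p = 0.2), 0.35 without control F6, and 0.01 (standard error 0.253) with the length slope as a covariate.

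*Mafg*, which encodes a small Maf partner of NRF2, lies on chromosome 11. It was listed from 120628348 to 120633548 in the *APOE*-TR data and from 120625117 to 120633601 in the B6 data. Among *APOE*3 females it was at 16.3, 5.48, 15.3 and 9.23 CPM in filtered air (animals 52, 61, 63 and F6) and at 13.4, 19.3, 19.8 and 17.3 CPM with nPM (animals 55, 59, 67 and 70). Animals 61 and F6 had the lowest *Mafg* levels of the 32 *APOE*-TR mice as well as the steepest length slopes, and animal 55, the exposed mouse with the steepest slope, had the lowest level among the exposed. The difference was 0.73 (standard error 0.345, limma p = 0.0642, exact permutation p = 0.114), 0.41 without control 61, and with the slope as a covariate -0.06 (standard error 0.104).

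Elsewhere the *Mafg* differences were smaller and all positive. The *APOE*4 females were at 16.3, 15.8, 18.7 and 19.4 CPM in filtered air and at 22.3, 21.1, 19.2 and 17.8 CPM with nPM, a difference of 0.20 (standard error 0.097, limma p = 0.064, exact permutation p = 0.143), and of 0.02 (standard error 0.091) with the slope as a covariate. For *APOE*3 males the controls were at 19.7, 17.0, 15.0 and 19.3 CPM and the exposed mice at 17.4, 20.7, 19.8 and 22.4 CPM, a difference of 0.18 (standard error 0.103, exact permutation p = 0.171). In *APOE*4 males it was 0.07 (standard error 0.072), in B6 females 0.33 (standard error 0.222) and in B6 males 0.28 (standard error 0.234). The exposed and control ranges overlapped in each of the 6 strata, so the call over 48 mice rests on 6 differences of 1 sign, none of which passed alone. In B6 females the control 42 (15.9 CPM) was below the other controls (24.6 to 26.2 CPM).

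*Maff* and *Mafk*, the other small Maf genes, lie on chromosome 15 from 79346621 to 79359077 and on chromosome 5 from 139791536 to 139802653. *Maff* was the only one of the 9 genes past 0.005 within a stratum, in *APOE*3 males, where 0.154% of 16896 genes passed. In the other strata the share of genes past 0.005 was 1.19% (B6 females), 0.24% (B6 males), 0.671% (*APOE*3 females), 0.266% (*APOE*4 females) and 0.178% (*APOE*4 males). *APOE*3 males were at 0.619, 0.727, 0.447 and 0.504 CPM of *Maff* in filtered air and at 0.898, 0.761, 1.14 and 1.28 CPM with nPM, on 14 or more estimated reads. All exposed mice were above all controls, as 1.46% of genes did not overlap and 2.24% had p under 0.05.

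The means of *Maff* in *APOE*3 males were 0.574 ± 0.124 CPM (SD, n = 4) in filtered air and 1.02 ± 0.234 CPM with nPM. The log2 difference, which the added 0.5 CPM makes smaller than the ratio of the means, was 0.50 (standard error 0.129, limma p = 0.0025, exact permutation p = 0.0286). With a quasi-likelihood test in edgeR on recovered reads it was 0.85 and also past 0.005. Adjusted over all genes it did not pass (adjusted p = 1.0), and the call was lost without control 63 or 73 or exposed animal 58 or 76. The *Maff* difference was 0.07 (standard error 0.155) in *APOE*3 females, -0.04 (standard error 0.135) in *APOE*4 females and -0.06 (standard error 0.136) in *APOE*4 males.

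*Mafk* differed most in B6 females, at 4.00, 4.15, 1.28 and 3.75 CPM in filtered air and 6.90, 9.49, 8.54 and 3.98 CPM with nPM. Above all controls were 3 exposed mice, and 1 lay among them. The difference was 1.10 (standard error 0.403, limma p = 0.0165, exact permutation p = 0.0857), where 10.4% of 14784 genes had p under 0.05. Striatal markers were higher there too, 5 of 5 with a median of 1.37 and 1 with p under 0.05, and their part was not tested. Without 1 mouse at a time the *Mafk* difference ranged from 0.77 (without control 42) to 1.35, and the control at 1.28 CPM rests on 29 estimated reads. In the other strata *Mafk* differences lay between -0.08 and 0.16. Of the tested members, none had p under 0.05 for nPM in *APOE*4 females (5.56% of genes), *APOE*4 males (4.19%) or B6 males (4.35%).

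**Figure D2:**
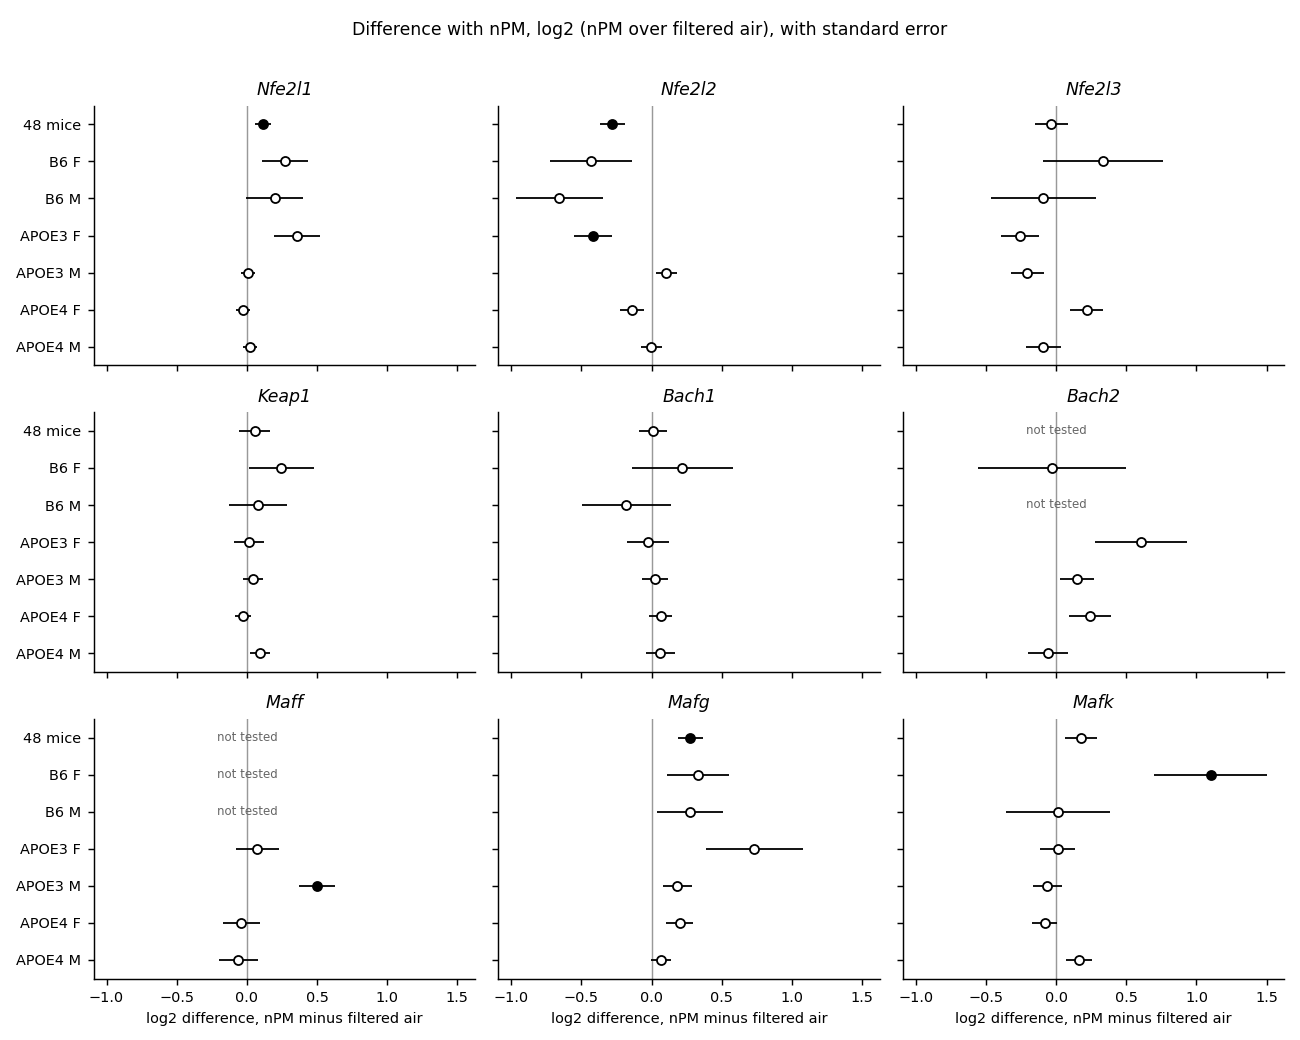
Log2 difference between nPM and filtered air (horizontal axis) for each of the 9 genes in the fit of 48 mice and in the 6 strata of 8 mice; bars are standard errors from limma and filled points have an unadjusted p under 0.05. *Mafg* points lie right of 0 throughout, from 0.07 to 0.73, and *Maff* was tested only in the 4 *APOE*-TR strata.

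The difference of the nPM response between the sexes had p under 0.05 for 0 of the 7 genes tested, against 13.8% of genes, and the smallest p was that of *Mafk* (0.30, standard error 0.201, n = 48, p = 0.144). The difference between alleles, *APOE*4 response minus *APOE*3 response averaged over the sexes, had p under 0.05 for 2 of 9 genes, against 10.6% of 15971 genes. For *Nfe2l3* it was 0.30 (standard error 0.122, n = 32, p = 0.0214), and for *Maff* -0.33 (standard error 0.147, n = 32, p = 0.0304). With the length slope as a covariate they were at 0.23 (n = 32, p = 0.0618) and -0.38 (n = 32, p = 0.0177). Neither passed 0.005 or 5% FDR (adjusted p = 0.443 from limma).

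Without nPM, *APOE*4 and *APOE*3 females differed in 4 of the 9 genes at an unadjusted p under 0.05, but in this comparison 41.1% of 16416 genes did so and 29.1% did not overlap. *Nfe2l1* was at 334, 341, 354 and 342 CPM in *APOE*4 females, all above the *APOE*3 females (206 to 300 CPM), at a difference of 0.48 (standard error 0.153, exact permutation p = 0.0286). *Nfe2l2*, at 13.5, 15.2, 11.6 and 12.1 CPM, lay below all *APOE*3 females (15.5 to 19.5 CPM), at -0.33 (standard error 0.118, exact permutation p = 0.0286). *Mafg* (0.76, standard error 0.330) and *Bach2* (0.70, standard error 0.298) overlapped between the alleles, and were at 0.44 without control 61 and at 0.45 without control F6. At 5% FDR 0.231% of genes passed and none of the 9 did (smallest adjusted p = 0.0773 from limma). The *APOE*3 control females are those of the nPM comparison above, so both sets of values share these mice. With the length slope as a covariate the differences were 0.08 (*Nfe2l1*), -0.16 (*Nfe2l2*), -0.21 (*Mafg*) and 0.04 (*Bach2*), none with p under 0.05.

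**Figure D3:**
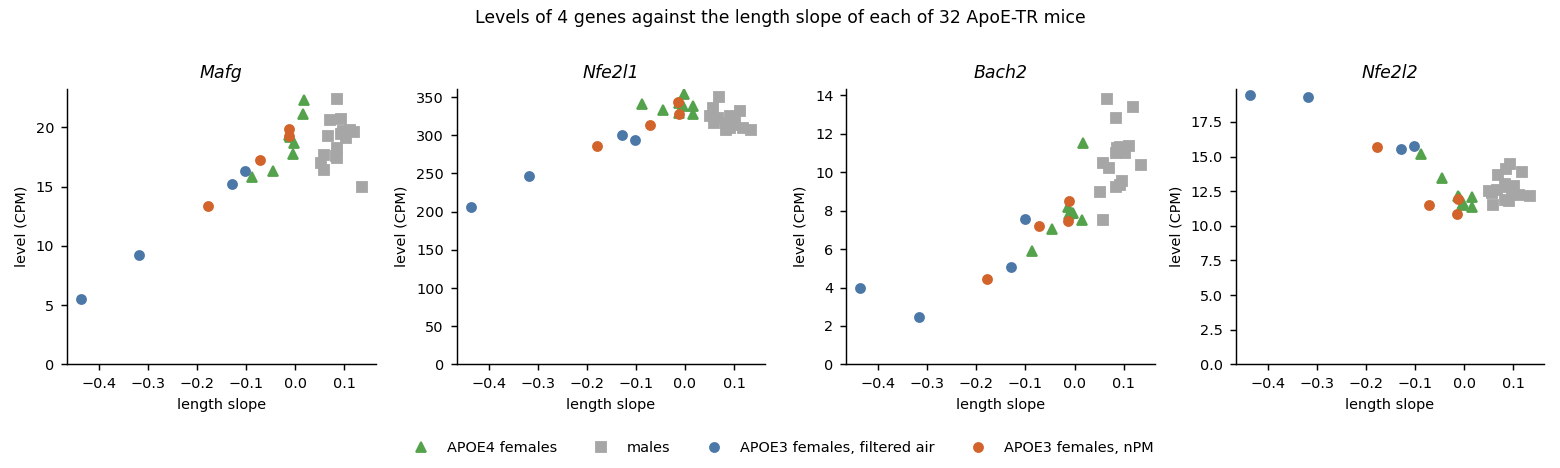
Level in CPM (vertical axes, linear from 0) of 4 genes against the length slope of each of the 32 *APOE*-TR mice (horizontal axes, no unit; a negative slope means that long transcripts were low in that mouse), with *APOE*3 females in filtered air in blue, *APOE*3 females with nPM in orange, *APOE*4 females as triangles and males as squares. The mice at slopes of -0.44 and -0.32 have the lowest *Mafg* (5.48 and 9.23 CPM) and *Nfe2l1* (206 and 247 CPM) and the highest *Nfe2l2* (19.5 and 19.3 CPM).

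Markers of cell types were summed in the *APOE*3 females as deposited CPM, without TMM scaling. All deposited CPM summed to 880442 in control 61 and to 675220 to 739008 in the exposed mice. The 5 microglial markers summed to 265 to 341 CPM in filtered air and 198 to 260 CPM with nPM, without overlap. Of single genes, 6.81% did not overlap in this comparison after scaling. The 5 astrocyte markers (1053 to 1433 and 756 to 1122 CPM) and the 5 oligodendrocyte markers (4578 to 6689 and 3515 to 4783 CPM) overlapped, and none of these markers was at 0 reads in these mice. The part of these markers in the differences of *Nfe2l2*, *Nfe2l1*, *Bach2* and *Mafg* was not tested.

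In males without nPM only *Maff* had p under 0.05 between the alleles, against 5.81% of 16863 genes, at 0.31 (standard error 0.133, exact permutation p = 0.0857). The *APOE*4 males were at 0.803, 1.10, 0.863 and 0.568 CPM and overlapped the *APOE*3 males given above. No member passed 5% FDR there (0.439% of genes). With nPM, 2 of 9 genes had p under 0.05 in each sex, against 9.12% of genes in females and 9.89% in males, and none passed 5% FDR, as 0.145% and 0.498% of genes did. Among females with nPM *Bach1* was at 11.7, 11.9, 11 and 11.4 CPM in *APOE*4 and 9.91, 11, 10.2 and 9.64 CPM in *APOE*3 mice. After scaling these did not overlap, as for 5.82% of genes, though 1 pair of deposited values did, and the difference was 0.19 (standard error 0.083, exact permutation p = 0.0286). *Nfe2l3* was at 0.27 (standard error 0.109, exact permutation p = 0.0857) with overlap. With the length slope as a covariate *Bach1* was at 0.13 (standard error 0.082) and *Nfe2l3* at 0.19 (standard error 0.125).

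Among males with nPM *Bach2* was lower in *APOE*4 mice (9.32, 10.2, 11 and 9.24 CPM) than in *APOE*3 mice (11.2, 11.3, 11.4 and 12.8 CPM), a difference of -0.22 (standard error 0.076, exact permutation p = 0.0286). *Mafk* was higher in *APOE*4 males (6.20, 6.76, 6.98 and 6.83 CPM) than in *APOE*3 males (6.14, 5.84, 4.54 and 6.09 CPM), a difference of 0.24 (standard error 0.099, exact permutation p = 0.0286). Neither gene overlapped between the alleles, as for 5.76% of genes. Without the *APOE*3 male 58 *Mafk* was at 0.14. Between these males 5 of 5 endothelial markers were lower in *APOE*4 (median -0.36, 3 past 0.005) and 5 of 5 blood markers higher (median 0.66, 2 with p under 0.05). Of all genes, 9.89% had p under 0.05 in this comparison, and the part of these markers was not tested. Over all 48 mice 0 of 7 members had p under 0.05 for the allele, against 14.5% of genes (0.37% at 5% FDR). The values closest to it were 0.21 for *Mafg* (standard error 0.107, n = 48, p = 0.0529) and 0.13 for *Nfe2l1* (standard error 0.070, n = 48, p = 0.0709). Without the *APOE*3 female 61 *Mafg* was at 0.13, and with 1 mouse left out at a time it had p under 0.05 in 14 of 48 fits. With the length slope as a covariate the values were 0.10 for *Mafg* (n = 48, p = 0.302) and 0.13 for *Nfe2l1* (n = 48, p = 0.0688).

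**Figure D4:**
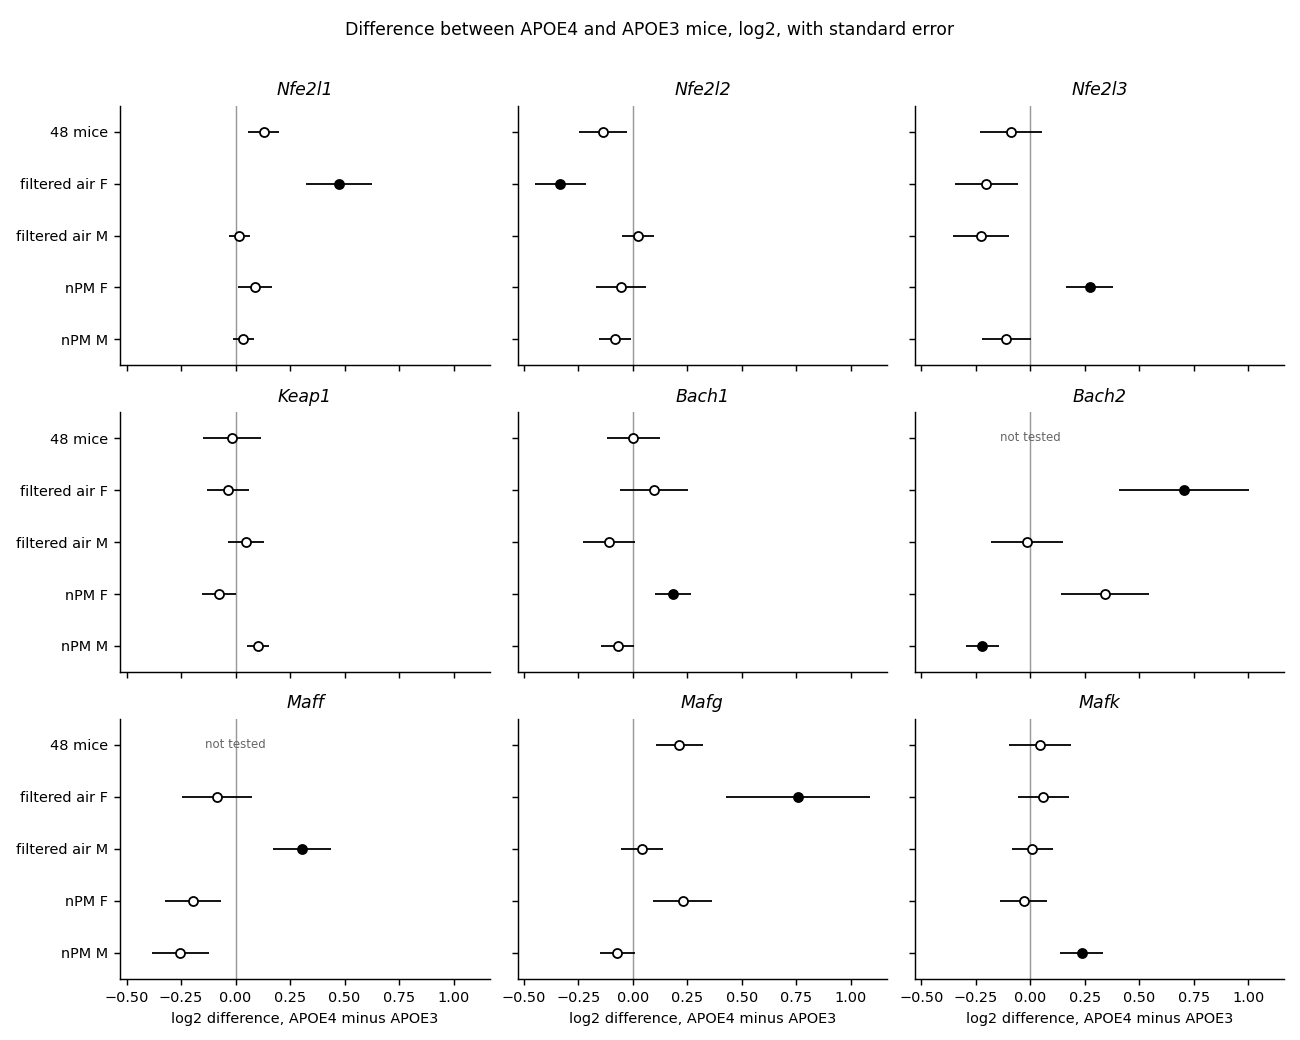
Log2 difference between *APOE*4 and *APOE*3 mice (horizontal axis) for each of the 9 genes in the fit of 48 mice and in the 4 comparisons of 8 *APOE*-TR mice by exposure and sex; bars are standard errors from limma and filled points have an unadjusted p under 0.05. The points farthest from 0 are *Mafg* (0.76) and *Bach2* (0.70) in females in filtered air.

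Other genes of the pathway were read from 4 lists chosen with earlier results of these data known. Of 30 partners and regulators of NRF2 and KEAP1 (ubiquitin ligase subunits, kinases, coactivators and competitors for KEAP1), 26 were tested over 48 mice, 1 rose past 0.005 and 0 fell, beside 1.49% of all genes. It was *Smarca4*, the BRG1 subunit of a chromatin remodelling complex that works with NRF2, at 0.32 (standard error 0.096, n = 48, p = 0.00173). The mean of *Smarca4* in *APOE*3 females was 42.1 ± 15.5 CPM (SD, n = 4) in filtered air and 66.1 ± 18.2 CPM with nPM. Over 48 mice *Smarca4* was at 0.21 (n = 48, p = 0.0016) with the length slope as a covariate and at 0.25 (n = 40, p = 0.0013) without the *APOE*3 females. Within the *APOE*3 females it was at -0.03 (standard error 0.110) with the slope as a covariate. The list's median log2 difference was 0.11, beside -0.01 over all genes tested.

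Of 14 genes that process NRF1, 13 were tested and 0 passed 0.005. *Ngly1*, the enzyme that removes sugar chains from NRF1, had the smallest p (-0.25, standard error 0.089, n = 48, p = 0.00643), and the list's median was 0.05. Of 17 other CNC, Maf and AP-1 factors, 10 were tested and 0 passed. *Fosl2*, an AP-1 subunit, had the smallest p (0.17, standard error 0.137, n = 48, p = 0.219), and the median was 0.08. Of 37 classic NRF2 targets, 30 were tested, 0 passed 0.005, and 1 was higher and 6 were lower at p under 0.05, beside 14.5% of all genes, with a median of -0.09. With the slope as a covariate 0 targets were higher and 3 lower (median -0.02, beside 13% of all genes), and without the *APOE*3 females 0 were higher and 2 lower (median -0.04, beside 5.52%). *Srxn1*, which reduces overoxidised peroxiredoxins, had the smallest p (-0.12, standard error 0.045, n = 48, p = 0.0119).

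Among reference targets, *Hmox1* (heme oxygenase) was at -0.13 (standard error 0.103), *Gclc* and *Gclm* (the subunits of glutamate cysteine ligase) at -0.03 (standard error 0.040) and -0.09 (standard error 0.083), and *Txnrd1* (thioredoxin reductase) at -0.05 (standard error 0.068), none with p under 0.05. *Nqo1*, the quinone reductase, was not tested over 48 mice because it had 0 reads in at least 1 B6 female. Its mean in *APOE*3 females was 5.65 ± 2.02 CPM (SD, n = 4) in filtered air and 3.16 ± 0.59 CPM with nPM, and the log2 value differed by -0.65 (standard error 0.210, limma adjusted p = 0.23), and by -0.21 (standard error 0.121) with the length slope as a covariate. There, 3 of 35 tested targets were higher and 11 lower at p under 0.05, with a median of -0.24, beside 21% of all genes at that p. With the slope as a covariate 0 were higher and 3 lower, with a median of -0.08, beside 6.96% of all genes. The median was 0.50 for the genes that process NRF1 and 0.31 for the partners, and 0.08 and 0.02 with the covariate. Markers of astrocytes (median -0.29), oligodendrocytes (-0.25) and microglia (-0.35) were lower in these exposed females as well, each with 4 of 5 below 0, and their part in the lists was not tested. In the other strata the median of the targets ran from -0.10 (*APOE*4 females) to 0.01 (*APOE*4 males).

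**Figure D5:**
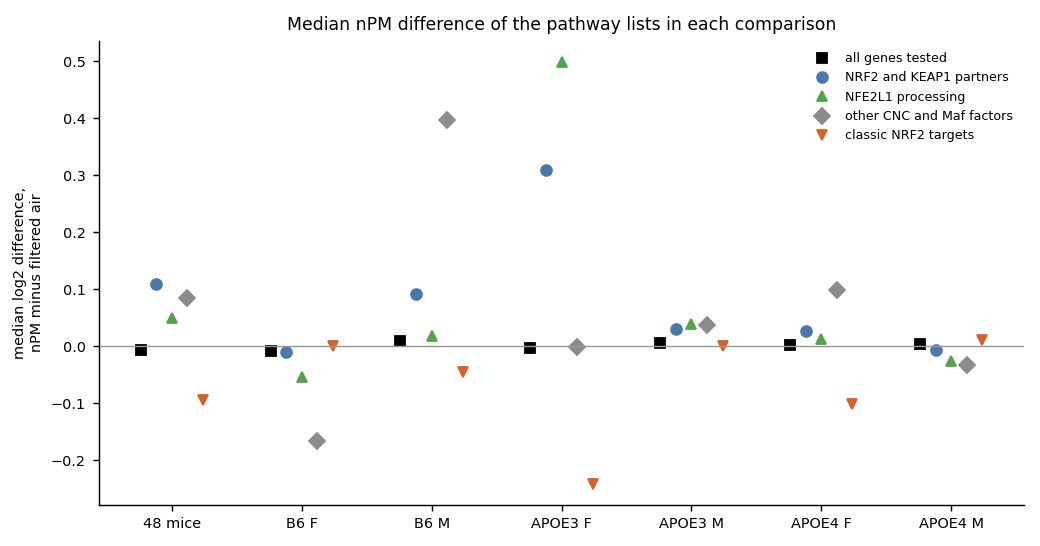
Median log2 difference between nPM and filtered air (vertical axis) of the 4 pathway lists and of all genes tested, in the fit of 48 mice and in the 6 strata (horizontal axis). In *APOE*3 females the medians run from -0.24 for the classic targets to 0.50 for the genes that process NRF1 (-0.08 and 0.08 with the length slope as a covariate, not drawn), and in *APOE*3 and *APOE*4 males they lie between -0.03 and 0.04.

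Likeness of pattern over the 32 *APOE*-TR mice was measured as Pearson's r on log2 levels against 15970 other genes. It is a description, since the length slope varies among these mice (-0.44 to 0.14) and each sex has its own range of depth. The genes most like *Nfe2l1* were *Nat8l* (r = 0.973), *Cdr2l* (0.972) and *C77080* (0.969), and those most like *Mafg* were *Irs2* (0.972), *Elfn2* (0.967) and *Gpr107* (0.966). *Keap1* was most like *Tpst2*, *Pcbp4* and *C1qtnf4* (0.953 to 0.958) and *Bach2* most like *Kmt2c*, *Unc79* and *Sdk2* (0.940 to 0.941). *Nfe2l2* was most like *Clic1*, *Cnn3* and *Lamp2* (0.868 to 0.888), *Mafk* most like *Ogfr*, *Syt5* and *Gna11* (0.853 to 0.865) and *Bach1* most like *Ptprz1*, *Oprm1* and *Gabrb1* (0.855 to 0.858). *Nfe2l3* had *Gm13293*, *Shtn1* and *Tmem125* (0.721 to 0.787), and *Maff* had *Pdia6*, *Sdf2l1* and *Dnajc3* (0.604 to 0.65). Among the 9 genes the pair most alike was *Nfe2l1* and *Mafg* (r = 0.907, and 0.887 after each group's mean was removed), and the pair most opposed was *Nfe2l1* and *Nfe2l2* (-0.744, and -0.510 within groups).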

How the data were processed

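The authors prepared stranded mRNA libraries, aligned single-end reads to mm10 with TopHat2 v2.0.8b in Partek and kept uniquely mapping reads. They deposited CPM in 1 table per exposure. Each deposited value had the form of reads plus 1, times a step per mouse. Low values were whole within 0.05 of a step in 95.7% to 96.4% of cases per *APOE*-TR mouse, where reads were recovered, and in 85.6% to 98.2% per B6 mouse, where reads are estimates. Symbols listed more than once (4 rows of each table) were left out.

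TMM scaling (edgeR 4.0.16) was applied to the CPM of each fit, 0.5 CPM was added and log2 taken. Only genes above each mouse's lowest value entered. Tests were limma 3.58.1 (lmFit, eBayes with a trend) in R 4.3.3, adjusted by Benjamini-Hochberg over all genes of the fit. Over 48 mice the model was additive in sex, genotype and nPM, fits of 8 mice compared 4 with 4, and differences of responses were contrasts. A call was an unadjusted p under 0.005 for nPM and 5% FDR for the allele. Exact permutation tests were two-sided, over 70 labelings. Reads were simulated for the 8 *APOE*3 males and for the 48 mice, with a dispersion (spread between mice beyond that of counting) fixed at 0.02. Among 16923 genes tested in the 8 males, 198 of 200 genes changed by 1 on the log2 scale were recovered at 5% FDR. There, 13 unchanged genes were also called. Over the 48 mice, 200 of 200 were recovered among 13797 genes tested, and 3 unchanged genes were called. Smaller changes and larger spreads were not simulated, so these counts do not give the power of the fits for the differences reported here. Exon lengths came from GENCODE vM21.

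Alternatives were pseudocounts of 0.1 and 2, no TMM, size factors by the median of ratios, no filter, voom, voom with ComBat (sva 3.50.0), shared variance, edgeR on recovered reads, subsets and leaving out single mice. In edgeR the *APOE*-TR mice gave 115 calls among 15958 genes for nPM. The 9 genes and all lists were chosen with earlier results of these data known. Genes named were the 9, from each list those past 0.005 for nPM over 48 mice or else the smallest p, 6 reference targets, the 3 genes most like each of the 9, and 3 label checks. Nothing states that mice of a group came from separate litters or cages, so p-values measure the spread between these mice.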

Additional observations from a re-analysis of the deposited data

Results flagged for a closer look

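In 108 groups of 4 mice (9 genes in 12 groups), the lowest or highest value lay far from the other 3, by Dixon's ratio, in 8 groups, where chance gives about 1 in 20 groups. In B6 females in filtered air, animal 42 was lowest for *Mafg* (15.9 CPM, the others 24.6 to 26.2) and for *Mafk* (1.28 CPM, the others 3.75 to 4.15). *Keap1* was lowest in the *APOE*3 female 61 in filtered air (59.3 CPM, the others 65.7 to 66), which also has the steepest length slope. *Bach2* was highest in the B6 male 16 with nPM (4.06 CPM), the *APOE*3 male 76 with nPM (12.8 CPM) and the *APOE*4 female 08 with nPM (11.5 CPM, the others 7.52 to 7.86). In *APOE*4 females with nPM, *Nfe2l3* was lowest in animal 39 (4.04 CPM, the others 4.86 to 5.01) and *Mafk* highest in animal 23 (7.59 CPM, the others 6.79 to 6.92).

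Of 16 tested differences of the nPM response between sexes or alleles, 2 had an unadjusted p under 0.05 in limma, both between alleles (2 of 9, beside 10.6% of all genes, and 0 of 7 between sexes, beside 13.8%). The *APOE*4 response minus the *APOE*3 response was 0.30 for *Nfe2l3* (n = 32, p = 0.0214) and -0.33 for *Maff* (n = 32, p = 0.0304), and neither passed adjustment over all genes (adjusted p = 0.443).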

How the results depend on the processing

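The number of the 9 genes called was the same under every alternative in 10 of 14 comparisons, in each of them 0. For nPM over 48 mice it was 2, and 1 (*Mafg*) without the filter on low values or with voom, ComBat and an unweighted fit. It was 0 in *APOE*-TR mice alone (limma, and edgeR on recovered reads), B6 mice alone, females alone, males alone, without *APOE*3 females and with the length slope as a covariate, and 0 to 2 with 1 mouse left out. In *APOE*3 females the count for nPM went from 0 to 3 (*Mafg*, *Nfe2l1* and *Nfe2l2*) with variance shared over the *APOE*-TR groups, a setting that called 5051 of 16391 genes in place of 110, and it was 0 to 1 with 1 mouse left out (*Nfe2l2* without the exposed animal 55). In *APOE*3 males it was 1 (*Maff*), and 0 to 1 with 1 mouse left out. For the allele in control females it went from 0 to 4 (*Bach2*, *Mafg*, *Nfe2l1* and *Nfe2l2*) with shared variance, which called 8839 of 16416 genes in place of 38, and it was 0 to 3 with 1 mouse left out (3 without control 52). Of 17 values with p under 0.05, 1 changed sign, *Mafg* for the allele in control females, at -0.21 with the length slope as a covariate. Of 100 values with a larger p, 46 changed sign under at least 1 alternative. The causes were not tested. The groups compared hold different mice and no label pairs them, so no paired analysis was made. Depth limits *Maff* most, and in B6 mice also *Bach2* and *Nfe2l3*, at as few as 0 and 7 estimated reads.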
